A study of Homo sapiens with 96 samples.

Results

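Splicing of the mRNAs for 10 genes of the Sm core and its associated snRNP proteins was described in A549 cells, an established human lung adenocarcinoma line, after inhibition of protein arginine methyltransferases (PRMTs). The genes were chosen by name and are SNRPB, SNRPN, SNRPD1, SNRPD2, SNRPD3, SNRPE, SNRPF, SNRPG, SNRNP70, and SNRPA1, out of 14359 genes with a listed event. Every alternative splicing event carrying 1 of these symbols was taken, which gave 219 of the 239131 events listed. SNRPA1 encodes the A′ protein of the U2 snRNP, so the set is wider than the Sm core and U1. The data are poly(A)-RNA seq of 30 libraries in 10 groups of 3. DMSO (0.01%) served as control at 4 and 7 days. GSK591, an inhibitor of PRMT5, and MS023, an inhibitor of Type I PRMTs, were given at 1 µM each for 2, 4, and 7 days. Both inhibitors together, each at 1 µM, were given for 2 and 4 days. The 2-day inhibitor libraries were compared with the 4-day DMSO libraries, so the day and the inhibitor cannot be told apart there. The 2- and 4-day comparisons all share the 4-day DMSO libraries, and the 7-day comparisons share those of 7 days.

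The spliceosome assembles on each intron anew from small nuclear ribonucleoproteins (snRNPs). The U1, U2, U4, and U5 snRNPs each carry a ring of Sm proteins (SmB/B′ or SmN, D1, D2, D3, E, F, and G) that closes around a uridine-rich site of the snRNA. PRMT5 methylates arginines in the tails of SmB/B′, SmD1, and SmD3 before the SMN complex loads the ring onto the snRNA. The U1 snRNP recognizes the 5′ splice site, and its protein U1-70K, the product of SNRNP70, binds a stem-loop of U1 snRNA and contacts splicing factors. The mRNAs for these proteins are spliced by the machinery that they help to build. Several genes for splicing factors are known to hold exons whose inclusion brings a premature stop codon and nonsense-mediated decay (NMD).

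For each event the tables give the reads of the form with the alternative segment (inclusion) and of the form without it (skipping). The measure is Ψ, the share of the inclusion form after both counts are divided by their effective lengths, and ΔΨ is Ψ with inhibitor minus Ψ with DMSO. Values are means ± SD of 3 libraries and differences are ± SE. The tables carry no replicate number, and the letters a, b, and c give only the place of a library in its group. Nothing in the labels says whether they came from separate cultures, so the p-values measure the spread between libraries, which may be technical. Between 29241057 and 42336018 reads per library fell on skipped exon events, of which 65979 to 151822 were on the 10 genes. Library a of GSK591 at 2 days stood apart, with 0.359% of these reads on the 10 genes against 0.209% to 0.317% in all other libraries. Pairs of libraries within a group differed by 1.83 to 2.95 times the sampling variance, so no library was a copy of another. The epithelial keratins KRT8 and KRT18 had up to 67780 and 44937 reads per 4-day DMSO library on skipped exons, EPCAM and CDH1 had up to 92 and 192, and KRT19 had no listed event. No skipped exon of PTPRC, CD3E, PECAM1, or COL1A1, which mark leukocytes, endothelium, and fibroblasts, was listed.

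Of the 219 events, 191 had at least 10 reads in every library of a comparison and were tested, and 51 were called (adjusted p under 0.05) in at least 1 of the 8 comparisons with DMSO. SNRPN held 22 of the called events among 70 tested, SNRPA1 8 of 24, SNRNP70 7 of 23, SNRPD2 4 of 14, SNRPE 4 of 17, SNRPD3 3 of 15, SNRPB 2 of 11, and SNRPG 1 of 7. None of the 6 tested events of SNRPD1 or of the 4 of SNRPF was called by the quasi-binomial test (unadjusted p under 0.05 in 4 of 30 and 2 of 15 tests). Many events of a gene share junctions and hence reads, so these counts are not counts of independent changes.

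Skipped exons (SE) of the 10 genes were called at a higher share than all tested SE in every comparison, by margins from narrow to wide. The share was near that of all tested SE at 2 days with MS023 and with both inhibitors. Events of the 10 genes and all tested SE were not matched for reads. With GSK591, 10 of 71 SE were called at 2 days (7.16% of all tested SE), 13 of 76 at 4 days (10.6%), and 14 of 66 at 7 days (8.55%). With MS023, 3 of 64 were called at 2 days (3.67%), 5 of 60 at 4 days (4.28%), and 7 of 68 at 7 days (4.95%). The 3 calls at 2 days were all in SNRNP70 and share 1 skipping junction. With both inhibitors, 10 of 68 were called at 2 days (13.8%), which is near the background, and 17 of 71 at 4 days (14.6%). The counts fell with a dispersion prior that follows the reads of the rarer form, to 4, 10, and 9 with GSK591, 3, 4, and 4 with MS023, and 8 and 13 with both inhibitors. Of all tested SE that prior called 4.34%, 6.98%, and 4.77% with GSK591 at 2, 4, and 7 days, 1.47%, 1.87%, and 2.4% with MS023, and 9.51% and 10.9% with both inhibitors. This second prior was added because events with many reads on both forms varied more than sparse ones, and a call lost with it is given as such beside its value. The counts also changed when a library was left out. The share of all tested SE was not computed for these refits. Fewer libraries and a particular library therefore cannot be told apart. With GSK591 at 2 days 3 SE were called without its library a, the library that stood apart, and 3 to 6 without any other. With GSK591 at 7 days 7 were called without its library a or c and 8 or 9 without any other. For MS023 3 were called at 4 days without its library a or c or library c of DMSO, and 3 at 7 days without any 1 of its own libraries. With both inhibitors at 4 days 9, 10, and 11 were called without library a, b, or c of that group.

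Neither of the 2 retained introns (RI) was called against DMSO in any of the 8 comparisons by the quasi-binomial test (unadjusted p under 0.05 in 3 of 16 tests), while 26.4%, 38.2%, and 27.9% of all tested RI were called with GSK591 at 2, 4, and 7 days. These shares were 5.65%, 7.17%, and 11.4% with MS023, and 34.7% and 39.7% with both inhibitors at 2 and 4 days. Alternative 3′ splice sites (A3SS), alternative 5′ splice sites (A5SS), and mutually exclusive exons (MXE) were counted together and stood near or below their background in 5 of 8 comparisons. With GSK591, 2 of 57 of these were called at 2 days (4.28% of all tested), 5 of 53 at 4 days (9.58%), and 4 of 52 at 7 days (7.25%). With MS023 the counts were 2 of 47 (1.60%), 1 of 51 (1.99%), and 5 of 56 (3.32%), and with both inhibitors 3 of 51 at 2 days (9.82%) and 12 of 64 at 4 days (12%). Without library a or b of co-treatment the 4-day count was 4, and without library a of co-treatment the 2-day count was 8. Without library b of MS023 at 7 days, 1 RI was called and the other count was 2. The 2 calls with MS023 at 2 days were both lost without any 1 of its libraries, and those with GSK591 at 2 days without library a or c of DMSO.

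Among the skipped exons described, the largest ΔΨ was in SNRNP70 (U1-70K; chr19:49588676-49611862, + strand, hg19), in a cassette exon that begins at chr19:49605371. The tables list this exon with 3 ends, which give forms of 1474, 60, and 72 bases, and GENCODE places each form in 1 annotated NMD transcript. In the reading frame of the upstream coding transcripts, an in-frame stop codon begins at base 24 of the exon, and so lies in all 3 forms. The splice sites are shown because the forms share 1 acceptor and differ in their donors (exon bases in capitals, intron bases in lower case, 5′ to 3′, hg19, + strand).
Donor of the exon before (chr19:49604726-49604734): ACTgtgagt
Shared acceptor of the cassette exon (chr19:49605351-49605373): tgttcttattgtcactgcagCCA
Donor of the 60-base form (chr19:49605428-49605436): ATGgttggt
Donor of the 72-base form (chr19:49605440-49605448): AGGgtttgt
Donor of the 1474-base form (chr19:49606842-49606850): TCGgtaaat
Acceptor of the exon after (chr19:49607871-49607893): cctccccacatctgttacagCCG
The letters gtaagt that follow many donors stood after none of the 3 ends, and the donor of the exon before has gtgagt.

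The 1474-base form was called in all 8 comparisons with DMSO. At 4 days Ψ was 0.0447, 0.0461, and 0.0419 in the DMSO libraries, 0.131, 0.138, and 0.120 with GSK591, 0.111, 0.114, and 0.103 with MS023, and 0.0796, 0.0737, and 0.0732 with both inhibitors. No inhibitor library overlapped DMSO, and the co-treated libraries lay between DMSO and either inhibitor alone. At 7 days Ψ was 0.0394, 0.0533, and 0.0643 with DMSO, 0.343, 0.309, and 0.286 with GSK591, and 0.156, 0.142, and 0.146 with MS023. Inclusion therefore rose from 0.0523 ± 0.012 to 0.312 ± 0.029 with 7 days of GSK591 and to 0.148 ± 0.0071 with MS023 (n = 3). These ΔΨ were 0.260 ± 0.018 (SE) and 0.0955 ± 0.0083, with adjusted p-values of the quasi-binomial test too small to be represented, and 3.0e-137 for MS023 with the second prior. Such values rest on the spread of all other events, and the test without that support called 1 of the 93 named changes against DMSO.

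At 2 days the differences were small. Ψ was 0.0477, 0.0632, and 0.0491 with GSK591 and 0.0731, 0.0760, and 0.0623 with MS023, above the 4-day DMSO libraries, and 0.0328, 0.0358, and 0.0273 with both inhibitors, below them. The adjusted p-values were 0.0066 with GSK591, 1.6e-37 with MS023, and 5.1e-09 with the pair. The GSK591 call rested on single libraries, and its adjusted p reached 0.18 without library c of 4-day DMSO. Against the same DMSO libraries, co-treatment gave less of the form at 2 days and more at 4 days, and each inhibitor alone gave more on both days.

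The inhibitor groups were also compared directly. At 2 days the 1474-base form was lower with GSK591 than with MS023 by a ΔΨ of -0.0171 ± 0.0065 (adjusted p = 1.5e-10), although the libraries overlapped. At 4 days it was higher with GSK591, by 0.0201 ± 0.0064 (adjusted p = 1.7e-06), and at 7 days by 0.164 ± 0.017 (adjusted p = 2.0e-169). Co-treatment was below GSK591 by -0.0214 ± 0.0055 at 2 days and -0.0542 ± 0.0058 at 4 days, and below MS023 by -0.0385 ± 0.0048 and -0.0341 ± 0.0039, with no overlap (adjusted p at most 1.5e-25). DMSO itself differed between 7 and 4 days by 0.00811 ± 0.0073 (adjusted p = 0.0026), a call that went to 0.064 with the second prior and to 0.92 without library c of 7-day DMSO.

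**Figure D1:**
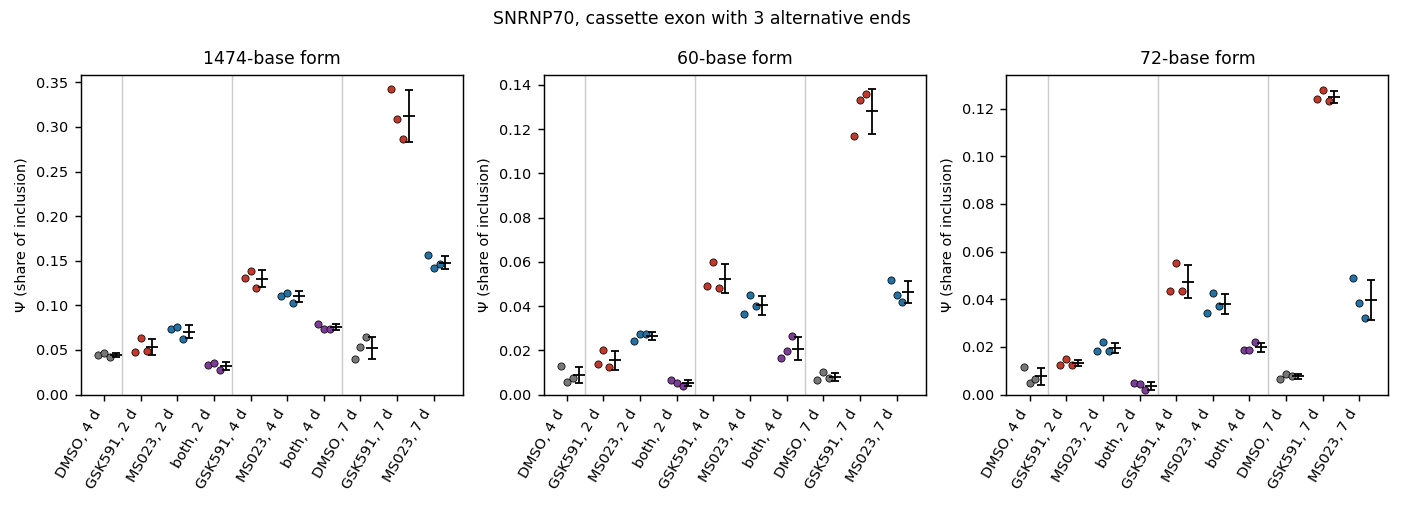
Ψ of the 3 forms of the SNRNP70 cassette exon in every library (points), with the mean and SD of 3 libraries (bars), by inhibitor and day; the vertical axes have different ranges. The 3 libraries with 7 days of GSK591 lie highest in each panel, at 0.286 to 0.343 for the 1474-base form.

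The shorter forms moved alike, but they use the same skipping junction (equal skipping reads in 30 of 30 libraries) and are no independent evidence. The 60-base form went from 0.00812 ± 0.0018 with DMSO to 0.128 ± 0.010 with GSK591 and 0.0463 ± 0.0051 with MS023 at 7 days. For the 72-base form the 7-day values were 0.00759 ± 0.0012, 0.125 ± 0.0026, and 0.0398 ± 0.0084. All 4 of these changes were called with both priors. The 3 forms differ in what is counted, since reads inside the segment add to its inclusion count. In library a of 4-day DMSO the 1474-base form had 1582 inclusion reads and the 60-base form 57, against 3103 skipping reads for each. Reads within the 1474 bases could also come from RNA in which the whole intron is kept, and the counts cannot separate these.

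The A5SS event that sets the 1474-base end against the 60-base end had Ψ of 0.938, 0.972, and 0.924 with 4-day DMSO and 0.904, 0.883, and 0.803 with MS023 at 2 days. This was the only call for that event against DMSO (adjusted p = 0.019, and 0.32 without library c of MS023). Another SNRNP70 exon, of 63 bases at chr19:49593548-49593610 in the coding sequence, was included almost fully, with Ψ of 0.999 ± 0.00059 in 4-day DMSO. It fell to 0.993 ± 0.0058 with GSK591 (0.994, 0.998, and 0.987; adjusted p = 9.8e-04, and 0.081 without library c of GSK591) and to 0.993 ± 0.0024 with both inhibitors at 2 days (adjusted p = 1.9e-05), and stood at 0.999 with GSK591 at 7 days. Of the 6 called SE segments of SNRNP70, these 4 had the largest ΔΨ.

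In SNRPB (SmB and SmB′; chr20:2442280-2451499, − strand), an A3SS decides which protein is made. The long form begins 146 bases upstream at chr20:2442440-2442585 and meets a stop codon at base 9 of this extension, which gives the 231 codons of SmB. The short form lacks the extension and is read on to 240 codons, which is SmB′, with a longer proline-rich tail. Ψ here is the share of the long, SmB form. The acceptors are shown because inhibitor groups differed in which was used (− strand, exon bases in capitals).
Acceptor of the long form (chr20:2442583-2442605): acttcttactcttacttcagGCC
Acceptor of the short form (chr20:2442437-2442459): ttgtctggtttcccttacagGGC

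The share of the SmB form was 0.745, 0.768, and 0.771 in 4-day DMSO. It rose to 0.821, 0.815, and 0.828 with both inhibitors at 2 days and to 0.826, 0.816, and 0.844 at 4 days, with no overlap (adjusted p = 5.0e-11 and 5.1e-10). It fell with 7 days of GSK591, to 0.665, 0.688, and 0.663 from 0.756, 0.757, and 0.733 with DMSO (ΔΨ -0.0766 ± 0.011, adjusted p = 6.8e-10). MS023 gave 0.785 ± 0.0065 at 2 days (adjusted p = 0.010), 0.789 ± 0.016 at 4 days (adjusted p = 0.0084), and 0.752 ± 0.0078 at 7 days, which was not called. GSK591 gave 0.759 ± 0.021 at 2 days, not called, and 0.739 ± 0.0081 at 4 days, where the libraries overlapped DMSO (adjusted p = 0.042). With the second prior the calls for MS023 at 2 days (adjusted p = 0.14) and for GSK591 at 4 days (0.12) were lost. The MS023 call at 4 days reached an adjusted p of 0.36 without its library b.

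Set directly against each other, GSK591 gave a smaller share of the SmB form than MS023 at 4 days (ΔΨ -0.0504 ± 0.010, adjusted p = 5.6e-10; 13.6% of all tested A3SS called) and at 7 days (-0.0800 ± 0.0094, adjusted p = 1.3e-16; 10.9% called). At 2 days the difference of -0.0257 ± 0.013 was called (adjusted p = 7.8e-05; 8.43% called) with overlapping libraries. Co-treatment exceeded GSK591 by 0.0619 ± 0.013 at 2 days (2.35% called) and 0.0897 ± 0.0094 at 4 days (3.27% called), and exceeded MS023 by 0.0361 ± 0.0052 (8.69% called) and 0.0393 ± 0.012 (14.0% called). The libraries did not overlap in any of these 4, and adjusted p was at most 1.5e-05. This event had 3463 to 16663 reads per library. Library a of GSK591 at 2 days held the 16663 reads, against 9481 and 5992 in b and c, and had the lowest Ψ of the 3 (0.738, against 0.762 and 0.779).

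Of the 7 tested skipped exons of SNRPB, those described here hardly varied. The exon with the most reads, 152 bases at chr20:2448253-2448404, had Ψ of at least 0.999 in every library and was not called. The 112-base exon at chr20:2446354-2446465 went from 1.00 with 7-day DMSO to 0.997 with MS023 (adjusted p = 0.010, lost with the second prior at 0.064). This exon was also called between GSK591 and MS023 at 2 days, but not with the second prior or without library a of GSK591 (adjusted p = 0.37). An SE event of SNRPB that is not described here was called between GSK591 and MS023 at 4 days. No RI event of SNRPB was listed.

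SNRPG (SmG; chr2:70508494-70520872, − strand) has an exon of 23 bases in its coding sequence, whose skipping shifts the reading frame. The whole exon is short enough to show with its flanking intron bases (− strand, exon in capitals).
SNRPG exon (chr2:70516480-70516506): agATTTATGGACAAGAAGTTATCATgt
Its acceptor (chr2:70516502-70516524): ttacccttttcctttttcagATT
Its donor (chr2:70516476-70516484): CATgtaagt
Inclusion was 0.922, 0.935, and 0.922 in 4-day DMSO. It fell to 0.823, 0.838, and 0.834 with both inhibitors at 2 days (ΔΨ -0.0947 ± 0.0062, adjusted p = 3.6e-17) and to 0.852, 0.852, and 0.874 at 4 days (-0.0671 ± 0.0086, adjusted p = 2.7e-11). With GSK591 it fell to 0.902, 0.878, and 0.894 at 2 days and to 0.881, 0.902, and 0.903 at 4 days (adjusted p = 6.3e-05 and 1.4e-04). None of these groups overlapped DMSO, and all 4 calls held with the second prior. MS023 gave 0.913 ± 0.0063 and 0.914 ± 0.0046 at 2 and 4 days, which were not called.

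Co-treatment lowered the SNRPG exon below GSK591 alone, by -0.0595 ± 0.0084 at 2 days (adjusted p = 9.2e-16) and -0.0360 ± 0.010 at 4 days (2.6e-05), and below MS023 alone on both days. At 7 days no group differed, with means of 0.907 ± 0.0049 for DMSO, 0.907 ± 0.0037 for GSK591, and 0.909 ± 0.0042 for MS023. DMSO was itself lower at 7 than at 4 days, by -0.0194 ± 0.0052 (adjusted p = 0.015), but not with the second prior (0.23) or without library b of 7-day DMSO (0.39). SNRPG has many processed copies in the genome. How reads that match several loci were treated is not given in the sources used here, which bears on SNRPG, SNRPE, and the similar coding parts of SNRPB and SNRPN.

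**Figure D2:**
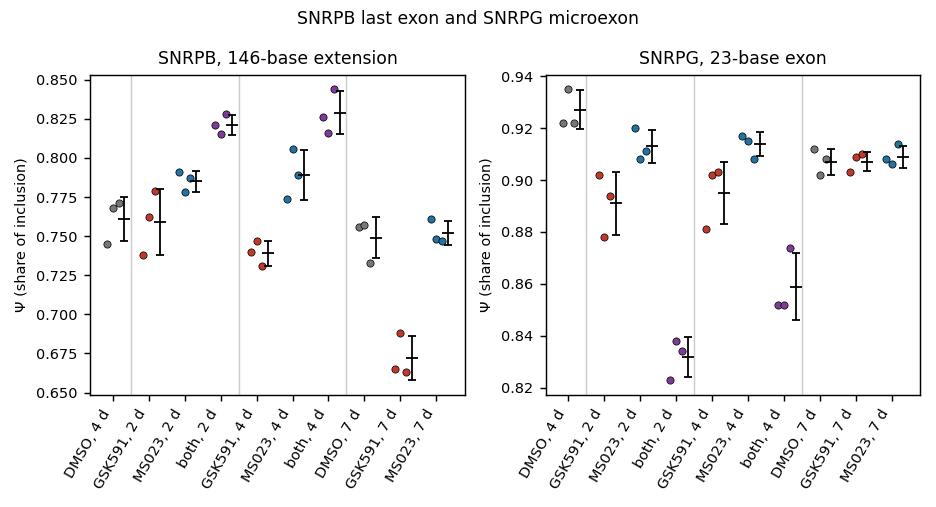
Ψ of the SNRPB extension that gives SmB and of the 23-base SNRPG exon in every library (points), with mean and SD of 3 libraries (bars); the axes do not start at 0. Co-treated libraries stand highest for SNRPB (0.815 to 0.844) and lowest for SNRPG (0.823 to 0.874), and 7 days of GSK591 lies lowest for SNRPB.

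SNRPD2 (SmD2; chr19:46190718-46195827, − strand) has a rarely used exon of 115 bases at chr19:46192491-46192605. It lies outside the annotated coding sequence, in 1 annotated transcript, which is classed as protein-coding and not as NMD. In the upstream coding frame it would meet a stop codon at base 5.
Acceptor of the SNRPD2 exon (chr19:46192603-46192625): agtgacatgttatgatttagGTT
Donor of the SNRPD2 exon (chr19:46192485-46192493): ATGgtaaga
Inclusion was 0.0137, 0.0144, and 0.0165 with 4-day DMSO. It rose with GSK591 to 0.0282, 0.0364, and 0.0433 at 2 days and to 0.0338, 0.0391, and 0.0353 at 4 days (adjusted p = 5.3e-08 and 1.0e-11). With both inhibitors it rose to 0.0325 ± 0.0027 and 0.0304 ± 0.0039 (8.2e-10 and 3.4e-08). At 7 days it rose from 0.0143, 0.0121, and 0.0115 to 0.0238, 0.0210, and 0.0281 with GSK591 (1.4e-18). MS023 gave 0.0161 ± 0.0042, 0.0146 ± 0.000082, and 0.0107 ± 0.00058 at 2, 4, and 7 days, none of them called. Another SNRPD2 event, an SE event not described here, was called with MS023 at 4 days (1 of 5 tested).

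The responses of SNRPD2 to GSK591 and MS023 differed in the direct comparison on each day, by 0.0198 ± 0.0050, 0.0214 ± 0.0016, and 0.0136 ± 0.0021 (adjusted p at most 5.0e-10, no overlap). Every one of these SNRPD2 calls held with the second prior and without any single library. All were lost with limma on log2 odds, and those against DMSO also without moderation of the dispersion. A second exon, of 96 bases at chr19:46193830-46193925, uses the same skipping junction and was included at 0.00365 ± 0.0028 with DMSO and 0.00829 ± 0.0021 with GSK591 at 4 days (adjusted p = 0.0062), where library b of DMSO (0.00677) reached above library c of GSK591 (0.00593).

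SNRPA1 (U2 snRNP A′ protein; chr15:101821715-101835487, − strand) has a coding exon of 80 bases at chr15:101826419-101826498, whose skipping shifts the frame. The A′ protein binds U2 snRNA together with its partner B″.
Acceptor of the SNRPA1 exon (chr15:101826496-101826518): tgtgtgtggtgtcgctgtagGAG
Donor of the SNRPA1 exon (chr15:101826413-101826421): AACgtaaga
Inclusion was 0.896, 0.905, and 0.889 in 4-day DMSO and fell to 0.843, 0.813, and 0.820 with GSK591 at 4 days (adjusted p = 2.1e-05). Both inhibitors lowered it to 0.811, 0.807, and 0.819 at 2 days and to 0.778, 0.789, and 0.744 at 4 days (7.6e-07 and 9.8e-10). At 7 days it fell from 0.884, 0.857, and 0.894 to 0.757, 0.789, and 0.736 with GSK591 (1.2e-11). GSK591 at 2 days gave 0.863, 0.825, and 0.879, below all DMSO libraries, but this call (adjusted p = 0.0092) was lost with the second prior (0.057). MS023 gave 0.875 ± 0.025, 0.880 ± 0.0057, and 0.844 ± 0.015 and was not called, and it lay above GSK591 in the direct comparison at 4 days (0.0032) and 7 days (9.2e-05). Another SNRPA1 event, an SE event not described here, was called with MS023 at 7 days (1 of 12 tested).

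A pair of SNRPA1 exons that are skipped together, of 79 and 148 bases at chr15:101832167-101832245 and chr15:101833230-101833377, was added to the description after its values were seen. The 79-base exon fell from 0.951 ± 0.0088 to 0.849 ± 0.022 with GSK591 at 4 days (adjusted p = 3.4e-05), and to 0.867 ± 0.0075 and 0.869 ± 0.038 with both inhibitors at 2 and 4 days (4.0e-04 and 1.0e-03, the latter 0.077 without library a of co-treatment). At 7 days DMSO was 0.850, 0.839, and 0.892, and GSK591 lowered it to 0.674, 0.735, and 0.693 (5.3e-09). The 7-day DMSO libraries were themselves below those of 4 days by -0.0902 ± 0.017 (2.7e-05), though the call did not hold without library a of 7-day DMSO (0.11). MS023 at 7 days gave 0.854 ± 0.023 and was not called. The 148-base exon has the same skipping reads (21 of 21 libraries) and fell from 0.967 ± 0.0087 to 0.895 ± 0.030 with GSK591 at 4 days (5.0e-05). Of the SNRPA1 segments that were called in 1 or 2 comparisons, the largest ΔΨ was in an MXE event of the 94- and 76-base exons. The share of the 76-base exon rose from 0.138 ± 0.025 to 0.248 ± 0.021 with both inhibitors at 4 days (0.0029). It also rose from 0.131 ± 0.024 to 0.226 ± 0.027 with GSK591 at 7 days (0.017, and 0.098 without library a of DMSO). The other such segments, 2 SE and 1 A5SS called with GSK591 at 2 days, changed by at most -0.0202 ± 0.011. Each of these calls was lost without library a of GSK591. Both SE calls were also lost with the second prior (0.071 and 0.14).

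SNRPE (SmE; chr1:203830727-203840280, + strand) changed in an exon of 41 bases at chr1:203831310-203831350, likewise added after its values were seen. With 4-day DMSO Ψ was 0.901, 0.879, and 0.880, and it rose to 0.942, 0.960, and 0.957 with both inhibitors at 4 days (adjusted p = 2.2e-04). GSK591 at 4 days gave 0.903, 0.934, and 0.951 (0.040, lost with the second prior at 0.15). With 7-day DMSO Ψ was only 0.765, 0.744, and 0.723, lower than at 4 days by -0.143 ± 0.014 (3.7e-10, no overlap, and called without any single library). GSK591 at 7 days gave 0.838, 0.795, and 0.860 (5.2e-04), above the 7-day DMSO libraries and below those of 4 days. The 7-day call reached 0.095 without library c of 7-day DMSO. A 63-base coding exon at chr1:203832791-203832853 stayed above 0.97 in all libraries and fell from 0.992 ± 0.0013 to 0.981 ± 0.0070 and 0.983 ± 0.0033 with both inhibitors at 2 and 4 days (0.0024 and 0.0082, and at 4 days 0.050 with the second prior).

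**Figure D3:**
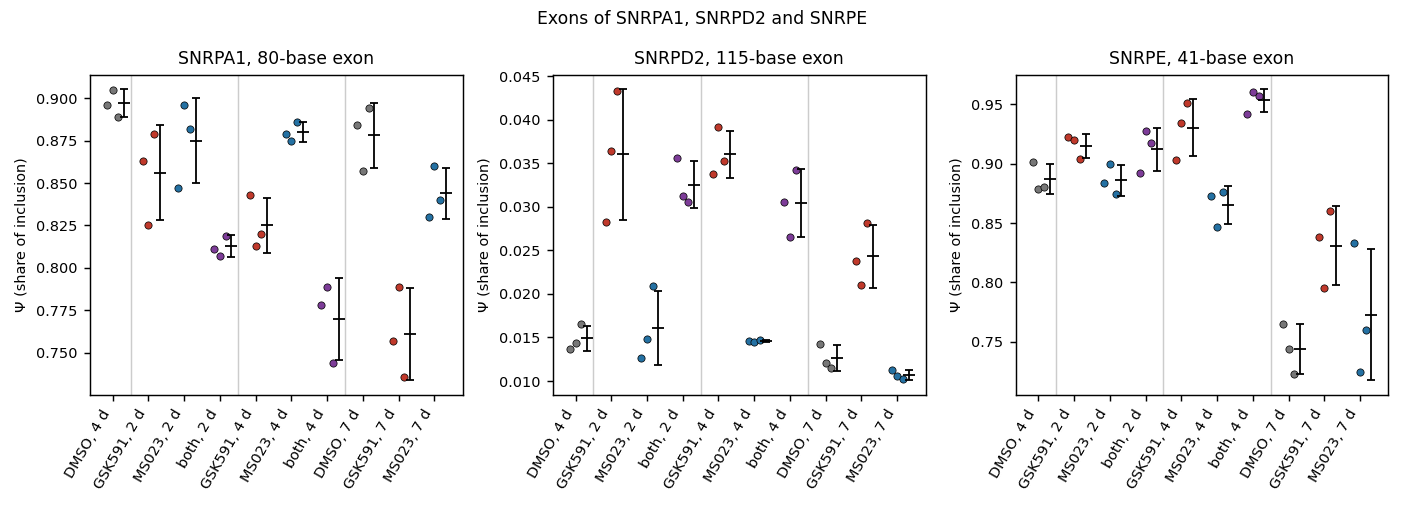
Ψ of the 80-base SNRPA1 exon, the 115-base SNRPD2 exon, and the 41-base SNRPE exon in every library (points), with mean and SD of 3 libraries (bars); axes differ and do not start at 0. GSK591 and co-treated libraries separate from DMSO for SNRPD2 on all days, and the SNRPE exon is lower in all 7-day DMSO libraries (0.723 to 0.765) than in those of 4 days.

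Only 2 RI events were listed for the 10 genes, and GSK591 and MS023 differed from each other in both, while neither was called against DMSO. The SNRPE intron (chr1:203830872-203831309, 438 bases) had Ψ of 0.393, 0.385, and 0.398 with 4-day DMSO, 0.455, 0.50, and 0.456 with GSK591, and 0.281, 0.280, and 0.337 with MS023 at 4 days. GSK591 was above and MS023 below all DMSO libraries, but neither difference was called (adjusted p = 0.14 and 0.13), and the direct difference of 0.171 ± 0.024 was (7.5e-04). At 7 days GSK591 exceeded MS023 by 0.143 ± 0.035 (0.0082, and 0.069 without library a of GSK591). The SNRPA1 intron (chr15:101826007-101827112, 1106 bases) was at 0.382 ± 0.026 with GSK591 and 0.271 ± 0.040 with MS023 at 4 days (difference 0.111 ± 0.027, adjusted p = 0.0034), and DMSO was at 0.315 ± 0.028, overlapping MS023.

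Both introns contain an exon of a listed skipped exon event, of 106 bases in SNRPE (chr1:203830978-203831083) and of 80 bases in SNRPA1. Reads counted as retention can therefore come from the included exon. For SNRPA1 this is the 80-base exon described above, and its spliced reads equalled the skipping reads of that exon in 30 of 30 libraries. The SNRPA1 events are thus not independent of each other. The SNRPE intron had 114 to 345 reads per library and the SNRPA1 intron 220 to 851.

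SNRPN encodes SmN, which can take the place of SmB, from an imprinted locus (chr15:25068784-25223870, + strand). Its described segments lie partly outside and partly in the coding sequence, and many are at 2 sites. At the upstream site an exon of 212 bases (chr15:25212176-25212387) rose from 0.0274, 0.0153, and 0.0271 with DMSO to 0.0628, 0.0666, and 0.0494 with GSK591 at 4 days (adjusted p = 3.9e-06). It was also called at 4 days with both inhibitors (0.0393 ± 0.0035, adjusted p = 0.014) and at 7 days with GSK591 (0.0356 ± 0.0037 against 0.0224 ± 0.0074, 0.0028), but neither of these held with the second prior (0.063 and 0.062). MS023 at 4 and 7 days was at 0.0266 ± 0.00052 and 0.0182 ± 0.0057, below GSK591 in the direct comparisons (4.9e-06 and 2.9e-05). The exon can end 88 bases earlier, and the share of the longer end was 0.301, 0.108, and 0.430 with 4-day DMSO. It rose to 0.611, 0.604, and 0.636 with GSK591 at 4 days (0.0037), and to 0.702 ± 0.067 and 0.658 ± 0.026 with both inhibitors at 2 and 4 days (0.0031 and 0.0016, the former 0.085 without library c of co-treatment). Only 21 to 70 reads per library stand behind this event.

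At the downstream SNRPN site the exon around chr15:25219458-25219603 has several acceptors. In the A3SS event with the largest change, a 110-base extension fell from 0.944, 0.932, and 0.948 with 7-day DMSO to 0.837, 0.852, and 0.853 with MS023 (adjusted p = 7.2e-04). The 3 other extensions at the same exon also fell with 7 days of MS023, by -0.0898 ± 0.026, -0.0352 ± 0.0032, and -0.0321 ± 0.0088, and they share acceptors with it. Without library a of MS023, 2 of these 3 calls were lost (adjusted p = 0.16 and 0.12). Co-treatment at 4 days raised 1 of the extensions from 0.907 to 0.967 (0.028, and 0.12 without library a of DMSO). GSK591 gave 0.960 ± 0.022 for the first of these at 7 days, above MS023 by 0.113 ± 0.014 (1.1e-05). The MXE event with a 151-base exon (chr15:25213079-25213229) or the 146-base exon had the share of the former at 0.965, 0.958, and 0.973 with 4-day DMSO. GSK591 lowered it to 0.902 ± 0.0078, 0.871 ± 0.024, and 0.876 ± 0.0095 at 2, 4, and 7 days, and both inhibitors to 0.920 ± 0.018 and 0.888 ± 0.039, all called with both priors. The 2-day calls were lost without library c of DMSO for GSK591 (0.058) and without library b of co-treatment (0.094). MS023 at 2, 4, and 7 days was at 0.961 ± 0.024, 0.958 ± 0.012, and 0.974 ± 0.0070, not called. The remaining described SNRPN segments, 3 SE and 3 MXE, were called in 1 or 2 comparisons each, with a ΔΨ of at most -0.0516 ± 0.012. With the second prior the calls of 1 SE with GSK591 at 7 days (0.14), of 1 with both inhibitors at 4 days (0.081), and of 1 with MS023 at 7 days (0.068) were lost. Each call of the 6 segments was also lost on leaving out some single library, with adjusted p reaching 0.12 to 0.29. The 212-base exon had 414 to 1212 reads per library.

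Where the described events of SNRPD3 were called against DMSO, they differed from it by at most 0.0396. The described events of SNRPD1 and SNRPF were included almost fully throughout. SmD3 and SmD1 are PRMT5 substrates and SmF pairs with SmE in the ring. In SNRPD3 an exon of 193 bases (chr22:24963952-24964144) was at 0.984, 0.962, and 0.978 with 7-day DMSO and at 0.983, 0.982, and 0.992 with GSK591. This overlap was called (adjusted p = 0.012) but not with the second prior (0.11), and a 54-base version of the exon with the same skipping reads gave 0.0090 and 0.097. Both calls were lost whichever of the 6 libraries was left out. GSK591 was above MS023 for the 193-base exon in the direct comparison at 4 days by 0.0201 ± 0.0026 (8.2e-04) and at 7 days by 0.0158 ± 0.0033 (5.6e-04). An A5SS of SNRPD3 was called with GSK591 at 4 days (0.034), on library c (0.997, 1.00, and 0.976), without which adjusted p was 0.61. The SNRPD1 and SNRPF events with the most reads, with 2002 to 6669 and 3356 to 12273 reads per library, had Ψ of at least 0.996 and 0.998 in every library. With the second prior 1 of the 15 SNRPF tests was called.

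In direct comparisons, 12 of 59 tested SE and RI events of the 10 genes differed between GSK591 and MS023 at 2 days (11.5% of all tested SE and RI), 17 of 59 at 4 days (15.6%), and 15 of 59 at 7 days (13.3%). The 2-day count was 3, 4, and 3 without library a, b, or c of MS023, the 4-day count 10, 10, and 11, and the 7-day count 7 without library c of MS023. Co-treatment differed from GSK591 in 4 of 61 at 2 days (4.63%) and 6 of 63 at 4 days (5.93%), in SNRNP70, SNRPG, and SNRPN. It differed from MS023 in 8 of 57 (13.2%), a share near the background, and in 12 of 58 (15.9%), or 7 without library a of MS023 at 4 days. DMSO at 7 days differed from DMSO at 4 days in 5 of 76 (2.76%), in SNRNP70, SNRPA1, SNRPE, and SNRPG, and in 1 without library b of 7-day DMSO. The effect of GSK591 against DMSO differed between 7 and 4 days in 4 of 53 (1.85%), in SNRNP70 and SNRPG, or 2 without library a of 4-day DMSO, and that of MS023 in 0 of 53 by the quasi-binomial test (0.0708%; unadjusted p under 0.05 in 6, and 1 called by limma with the second prior). The SNRPB extension also differed in its response to GSK591 between the days (1.09% of all tested A3SS), a call lost with the second prior and with limma. Direct and interaction tests of A3SS and A5SS were not refitted with a library left out. The 3 SNRNP70 forms were the only events described here that were called with MS023 against DMSO on each of the 3 days.

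**Figure D4:**
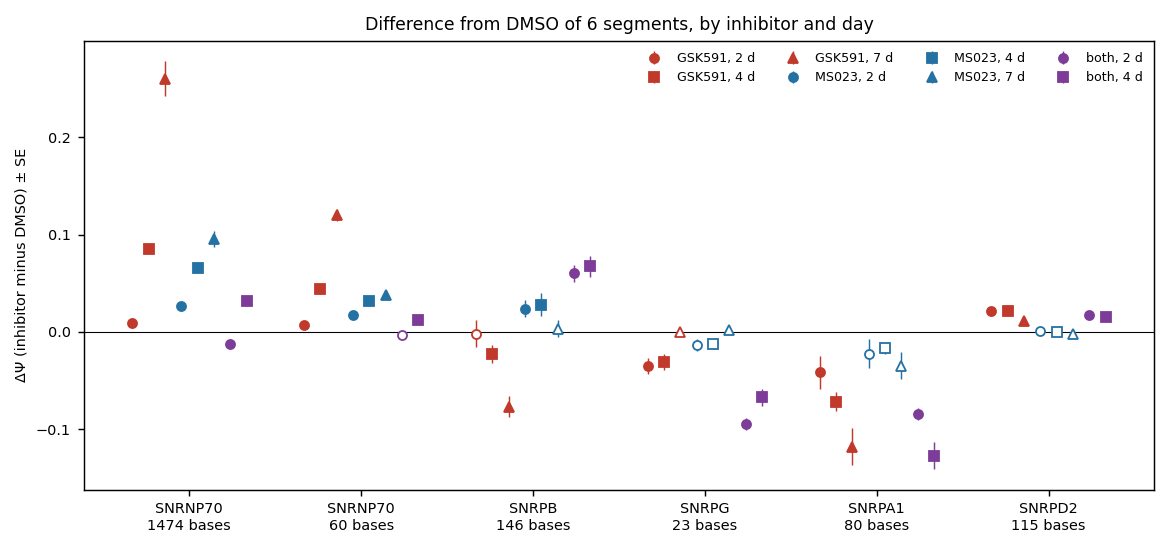
ΔΨ (inhibitor minus DMSO) ± SE of 6 segments by inhibitor (colour) and day (symbol); filled symbols were called and open symbols were not, and each point is the difference of 3 libraries from 3 DMSO libraries. The 1474-base SNRNP70 form with 7 days of GSK591 stands at 0.260, and for SNRPB GSK591 at 4 and 7 days lies below 0 and co-treatment above it.

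Other genes of the pathway were counted in 3 lists. Of 19 snRNP assembly genes (the SMN complex, the PRMT5 complex, and import factors), all had a listed event. In the order GSK591, MS023, and both inhibitors, 0 higher and 7 lower of 91 tested SE, 1 and 4 of 95, and 0 and 15 of 101 were called at 2 days, and 3 and 6 of 94, 0 and 4 of 91, and 1 and 12 of 103 at 4 days. At 7 days the counts were 1 and 3 of 84 with GSK591 and 3 and 5 of 97 with MS023. For the 14 of 16 listed genes with events that encode other U1 and U2 snRNP proteins, 2 higher and 2 lower of 130, 0 and 6 of 112, and 2 and 19 of 136 were called at 2 days, 3 and 3 of 119, 3 and 2 of 103, and 3 and 12 of 127 at 4 days, and 4 and 1 of 109 and 2 and 3 of 115 at 7 days. For the 9 of 11 LSm genes with events, which form rings like that of the Sm proteins, 1 higher and 3 lower of 28, 0 of 21, and 1 and 6 of 25 were called at 2 days, 0 and 4 of 25, 0 of 24, and 1 and 5 of 25 at 4 days, and 2 and 2 of 26 and 0 and 1 of 24 at 7 days. In the 2 LSm comparisons without a call by the quasi-binomial test, 2 of 21 and 3 of 24 had an unadjusted p under 0.05, and the second prior called 0 in each. Against the shares of all tested SE given above, the first 2 lists stood near or below the background in most comparisons. The LSm list stood above it with GSK591 (14.3%, 16.0%, and 15.4% at 2, 4, and 7 days). It also did so with both inhibitors (28.0% and 24.0% at 2 and 4 days). These calls lay in 1 to 4 of the 9 LSm genes in each comparison. With MS023 the LSm list stood below the background. Over all tested SE, 1029 were called higher and 4479 lower with GSK591 at 2 days, 2527 and 3493 with GSK591 at 7 days, and 1781 and 1779 with MS023 at 7 days.

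With GSK591 or MS023 alone at 2 days, the called events with the largest ΔΨ in these lists were in GEMIN7, LUC7L, and LSM2. Co-treatment was not searched for such events. A 123-base exon of GEMIN7 (chr19:45583165-45583287), a subunit of the SMN complex, fell from 0.742, 0.790, and 0.734 to 0.590, 0.576, and 0.554 with MS023 (adjusted p = 2.0e-09). In LUC7L, a relative of a yeast U1 snRNP protein, a 70-base exon (chr16:278332-278401) rose from 0.104, 0.0822, and 0.103 to 0.204, 0.281, and 0.190 with GSK591 (1.7e-05), and the adjacent intron from 0.614 ± 0.10 to 0.786 ± 0.047 (0.035). A 31-base exon of LSM2 (chr6:31766254-31766284) is listed in 2 events, and with GSK591 it fell from 1.00 in all DMSO libraries to 0.942, 0.914, and 0.897 (5.7e-04) in the first and from 0.987, 0.977, and 0.989 to 0.914, 0.930, and 0.908 (7.3e-07) in the second.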

How the data were processed

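Poly(A)-RNA of A549 cells was sequenced as stranded paired-end libraries. Per the labels and methods, the authors trimmed reads with Trim Galore (0.6.5), aligned them to hg19 with STAR (2.4.2a), and counted splicing events with rMATS, and the submitters' processing notes also name Picard 2.3.0 and deepTools 3.3.1. The 8 deposited tables hold counts of reads for inclusion and skipping, on junctions and within the alternative segment, with their effective lengths, for an inhibitor group and a DMSO group of 3 libraries each. The control of the 7-day tables was taken to be the 7-day DMSO group. The authors' difference and p-value columns and 16 columns of other per-sample values were not used. The SKaTER-seq, actinomycin D, and protein experiments were not analysed here.

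Ψ was computed from the deposited counts over effective lengths. An event was tested with at least 10 reads in every library. Counts were fitted by quasi-binomial logistic regression with an F test. The dispersion was moderated with limma 3.58.1 (squeezeVar, R 4.3.3) by 1 prior per event type and comparison and held at 1 or above. Inhibitor groups were compared directly, and effects between days by an interaction term, in the same way. Adjusted p is the Benjamini-Hochberg value over all events of a type, and an event was called under 0.05. A second prior, which follows the reads of the rarer form, was chosen after seeing the data. On simulated counts with known changes the test gave no wrong direction but missed most changes of SE and A3SS and nearly all of the interaction, and with 1 prior unchanged SE with many reads had too many low p-values, which the second prior brought near the nominal share. Reads per library are given with the results; intervals from them would cover counting error only.

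Segments were described where called in at least 1 of 8 comparisons, keeping the event with the most reads per segment and at most 4 per gene and type by ΔΨ. The SNRPB exon with the most reads was added, and for genes with no call the tested event with the most reads. Segments of SNRPA1 and SNRPE called in at least 3 comparisons were added after their values were seen. Pathway events named are at most 2 per list, called with GSK591 or MS023 alone at 2 days, with at least 50 reads per library. The genes and lists were chosen with earlier results of these data known. Splice sites and annotation came from GRCh37 (GENCODE), and all 122 splice sites read had canonical bases. Alternatives were limma on log2 odds (0.5 added), minima of 1 and 20 reads, a dispersion not moderated or not held at 1, adjustment over all event types, Ψ without effective lengths, and each library left out.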

Additional observations from a re-analysis of the deposited data

Results flagged for a closer look

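For 5 events the effect of GSK591 against DMSO differed between 7 and 4 days by the interaction term of the quasi-binomial model. The values are differences in the log2 odds of inclusion, 7 days minus 4 days. Limma on log2 odds called none of the 5. The 1474-base form of the SNRNP70 cassette exon differed by 1.37 (adjusted p = 1.2e-09, and 0.55 with limma on log2 odds). This call held without any 1 of the 12 libraries and with the second prior. The 60- and 72-base forms, which share its skipping reads, each differed by 1.53 (adjusted p = 0.0032 and 0.0037), and both calls were lost without library a of 4-day DMSO (0.076 and 0.091). The SNRPB extension that gives SmB differed by -0.37 (adjusted p = 0.0087), which the second prior did not call (0.067). The 23-base SNRPG exon differed by 0.54 (adjusted p = 0.031), with 0.15 under the second prior and 0.12 without library a of GSK591 at 4 days. For SNRPG the 7-day DMSO libraries were also below those of 4 days, and the part of this in the difference was not tested. No interaction was called for MS023, with differences of 0.26 for the 1474-base form (adjusted p = 0.47) and -0.21 for SNRPB (0.59).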

How the results depend on the processing

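No paired analysis was possible because the tables give no replicate numbers for their libraries. Of the 182 calls described, 93 were against DMSO, and 0 of these held in every alternative with a test. Of the 89 others 13 did, 9 of them with fewer than 5 alternatives run. None reversed. The second prior kept 149 and lost 33. Limma on log2 odds kept 14 of 177, and 133 with the second prior. A minimum of 20 reads kept all 177, a minimum of 1 read kept 92 of 93, and a dispersion not held at 1 kept all 93. Adjustment over all event types kept 91, and a dispersion not moderated kept 1. Of 984 tests with a library left out, 709 kept the call. Leaving out effective lengths moved the difference in Ψ between groups by more than the larger group SD in 99 of 177. Values below follow the order GSK591, MS023, and both at 2 days, the same at 4 days, then GSK591 and MS023 at 7 days. With limma, SE calls were 0, 0, 1, 0, 0, 1, 2, and 0, and calls of the other types (A3SS, A5SS, and MXE) 0, 0, 0, 1, 0, 1, 1, and 0. Without moderation every SE and other count was 0, except 1 SE with both inhibitors at 4 days. With the second prior SE calls numbered 4 and 9 for GSK591 (2 and 7 days) and 4 for MS023 (7 days), and other types 1 and 8 for MS023 (2 and 7 days). Limma with that prior gave 4 SE for GSK591 (2 days) and 8 for both (4 days), and other types 1, 0, and 0 for GSK591 (2 days), MS023 (2 days), and MS023 (4 days). Adjustment over all types gave 1 other type for GSK591 (2 days) and 9 for MS023 (7 days). In direct comparisons limma called 0, 1, and 6 between GSK591 and MS023, 0 and 0 between co-treatment and GSK591, 1 and 1 between co-treatment and MS023, 0 between the DMSO days, and 0 for the GSK591 effect between days. The second prior called 5 between GSK591 and MS023 at 2 days and 3 between DMSO days, and with limma 7 and 11 at 2 and 4 days and 1 for the MS023 effect. The pathway lists had 174 calls of SE and RI together over all comparisons with DMSO, and 36 with limma. The RI calls among them are not given above. No share over all tested events was computed for these totals. With each library left out, SE calls ranged 3 to 6, 3 to 3, 8 to 11, 9 to 10, 3 to 5, 9 to 13, 7 to 9, and 3 to 5, and other types 0 to 2, 0 to 1, 2 to 8, 2 to 4, 0 to 1, 4 to 11, 2 to 3, and 2 to 4. RI calls stayed at 0 except 0 to 1 with MS023 at 7 days. Direct counts ranged 3 to 11, 10 to 14, and 7 to 13 for GSK591 against MS023, 4 to 5 and 4 to 6 for co-treatment against GSK591, 6 to 10 and 7 to 10 against MS023, 1 to 5 for DMSO, 2 to 4 for the GSK591 effect, and 0 to 1 for the MS023 effect. No share of all tested events was computed with a library left out. Whether fewer libraries or a particular library gave these shifts was not tested. Events under 100 reads, such as the SNRPN end with 21 to 70, allow only large differences to be seen.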
